A study of Arabidopsis thaliana with 18 samples.

Results

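AEG3482 at 12.5 µM was compared with its solvent control, 0.1% (v/v) DMSO, in whole Arabidopsis thaliana seedlings 2 h after dawn (ZT2, where ZT counts hours from lights on). The comparison rests on 6 of the 18 RNA-seq libraries of the study, 3 labelled AEG and 3 labelled DMSO, chosen by their labels and not by any measured value. Wild-type Col-0 seedlings 14 days old, grown on half-strength MS medium under alternating 12 h of light and 12 h of darkness, were moved at ZT0, before the lights came on, to medium holding DMSO or one of 4 chemicals. The other chemicals were DPI at 10 µM, pentamidine isethionate at 25 µM (labelled PI) and Tyrphostin AG879 at 2 µM (labelled TYR), also collected at ZT2 in 3 libraries each, and 3 untreated libraries were collected at ZT0. Whether the medium with AEG3482 also held DMSO is not stated in the labels, so solvent and chemical are compared as labelled. The untreated libraries are from ZT0, so every comparison with ZT0 also spans 2 h of light and the transfer to new medium.

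AEG3482 is a sulfonamide on an imidazothiadiazole core. In mammalian cells it is known to bind the chaperone HSP90, to release heat shock factor, to raise HSP70 and so to dampen signalling by the MAP kinase JNK. In plants, as in animals, HSP90 and HSP70 hold heat shock factors inactive. Once released, the factors bind alternating GAA and TTC blocks, the heat shock element, before the genes of HSFA2, HSP90, HSP70 and the small heat shock proteins. The title of the study places the chemicals among modifiers of sugar signalling at dawn. In seedlings, sugar made in the first hours of light represses starvation genes through loss of the kinase SnRK1's activity and reaches the circadian clock through factors such as bZIP63.

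The 6 libraries held 3167721 to 3249696 estimated counts each over the 11437 genes of the table used here, 41.5% of the protein-coding genes of RefSeq TAIR10.1. CPM, the counts scaled to a common library size by TMM, are the levels given throughout, in the order of replicates 1, 2 and 3. Nothing in the labels says that the 3 libraries of a group came from separate cultures, so p-values measure the spread between these libraries, which may be technical. In whole seedlings, fewer cells of a type and less RNA per cell cannot be told apart. Of 8 shoot markers listed, the 2 in the table were high, LHCA1 of photosystem I at 7593 to 9767 CPM and PSBO1 of photosystem II at 8387 to 10100 CPM over the 6 libraries. Of 13 root markers, 6 were in the table, and BGLU23, a root beta-glucosidase, stood at 1862 to 3099 CPM, while the root-hair genes EXPA7, EXPA18 and RSL4 were at or near 0.

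The libraries of each group did not form one state. FSD1, an iron superoxide dismutase made when copper is short, stood at 1242, 0.956 and 1.2 CPM with DMSO and 1507, 3.34 and 0.317 CPM with AEG3482. Replicate 1 of each group was thus high, near the untreated libraries at 1694, 1749 and 1735 CPM, and the other 4 libraries were near 0. CSD2, the copper/zinc superoxide dismutase of the chloroplast, ran the other way, at 387, 1696 and 1808 CPM with DMSO and 397, 2125 and 1813 CPM with AEG3482. LOX2, a lipoxygenase of jasmonate synthesis, stood at 1058, 7397 and 2370.0 CPM with DMSO and 7241, 6673 and 2337 CPM with AEG3482. DMSO replicate 1 was the lowest of the 6 for LOX2, and of the 3 highest AEG3482 held 2 and DMSO 1. Both states cut across the treatments.

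**Figure D1:**
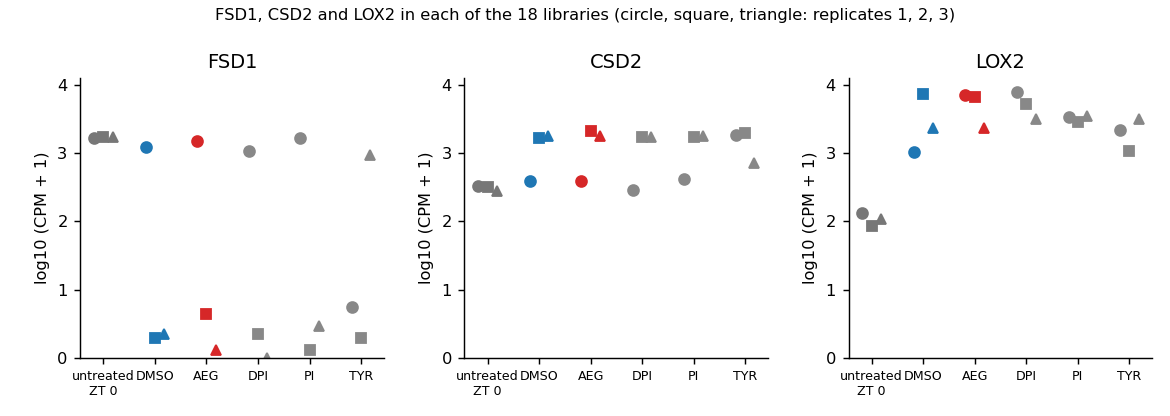
Levels of FSD1, CSD2 and LOX2 as log10(CPM + 1), 1 panel per gene and 1 point per library for all 18 libraries, by group, with circle, square and triangle for replicates 1, 2 and 3. Replicate 1 of DMSO and of AEG3482 sits near the untreated libraries for FSD1, at 1242 and 1507 CPM, while the other 4 libraries of these groups lie at or below 3.34 CPM, and for LOX2 DMSO replicate 1 at 1058 CPM is the lowest of the 6.

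The promoters shown here are those of 2 heat shock genes that were at or near 0 counts at ZT0 and present in all 6 libraries at ZT2. They are the 250 bases before the annotated start of the gene in RefSeq TAIR10.1, both on the plus strand, with matches to blocks of the heat shock element in capitals. The window of HSFA2 is chr2:11135374-11135623, and that of HSP23.5, a small heat shock protein of mitochondria, is chr5:20890913-20891162.
HSFA2: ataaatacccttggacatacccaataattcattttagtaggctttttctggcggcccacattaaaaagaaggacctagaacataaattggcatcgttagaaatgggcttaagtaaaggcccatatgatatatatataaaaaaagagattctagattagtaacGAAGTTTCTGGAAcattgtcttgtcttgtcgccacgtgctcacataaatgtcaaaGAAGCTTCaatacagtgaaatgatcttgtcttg
HSP23.5: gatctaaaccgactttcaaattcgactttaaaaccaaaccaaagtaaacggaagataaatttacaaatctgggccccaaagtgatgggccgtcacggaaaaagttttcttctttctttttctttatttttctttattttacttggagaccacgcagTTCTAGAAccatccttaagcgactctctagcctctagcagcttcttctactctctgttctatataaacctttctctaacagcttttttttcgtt
The full element searched was GAANNTTCNNGAA, or TTCNNGAANNTTC on the other strand, and 106 of 27443 such windows in the genome held it (0.386%). The HSFA2 window held it as GAAGTTTCTGGAA, the only one of the 38 tested heat shock and chaperone genes, those of the endoplasmic reticulum included, to do so. The shorter pair of blocks, GAANNTTC or TTCNNGAA, is contained in the full element and was added after the data had been seen. It stood in 16.1% of all windows, in 15.8% of the windows of genes tested and in 5 of the 38 heat shock and chaperone genes (13.2%), among them HSP23.5 with TTCTAGAA 94 bases before its start. A match is a description of letters in this window and shows no bound factor.

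AEG3482 gave no gene whose level differed from DMSO beyond the spread between libraries. Of 9006 genes tested, 0 (0%) passed an adjusted p of 0.05 in edgeR (quasi-likelihood F test, Benjamini-Hochberg adjusted), and the smallest adjusted p was 0.916. At an unadjusted p under 0.05, edgeR gave 302 genes (3.35%), 105 higher (1.17%) and 197 lower (2.19%) with AEG3482. DESeq2 called 0 genes, with 231 at an unadjusted p under 0.05, and limma-voom called 0, with 309. Without DMSO replicate 2 edgeR still called 0, but 653 genes had an unadjusted p under 0.05 and the smallest adjusted p was 0.0659.

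The root mean square difference in log2 CPM between an AEG3482 and a DMSO library was 0.468 to 0.578 over the 9 pairs. It was 0.533 to 0.579 between DMSO libraries and 0.462 to 0.556 between AEG3482 libraries. The 2 groups were thus no farther from each other than libraries of 1 group were from one another. The median size of the log2 fold change was 0.13, and 149 genes had a fitted difference of at least 2-fold in either direction. The 3 libraries of each group did not overlap in 619 genes (6.87%), 282 higher with AEG3482 (3.13%) and 337 lower (3.74%).

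The intervals show which changes these libraries leave possible. For 7227 of the 9006 genes (80.2%) the whole 95% interval of the difference lay inside 2-fold. The median half-width was 0.42 on the log2 scale, a factor of 1.34. Precision followed the level. Of the 461 genes with a mean under 3 CPM, 0.434% had an interval inside 2-fold, of the 1431 genes at 3 to 10 CPM 35.3%, and of the 2336 genes at 10 to 30 CPM 88.7%. Of the 2879 genes at 30 to 100 CPM the share was 97.4%. In the fit of all libraries a change of 2-fold or more was therefore outside the interval for nearly all genes above 30 CPM, and the interval did not exclude it for most genes under 10 CPM. The half-width itself was under 1 for 79% of the genes at 3 to 10 CPM and 7.38% of those under 3 CPM. With that half-width a fitted change of 2-fold would have had an interval clear of 0. The intervals are not adjusted for the number of genes tested, so an interval clear of 0 is not a call.

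**Figure D2:**
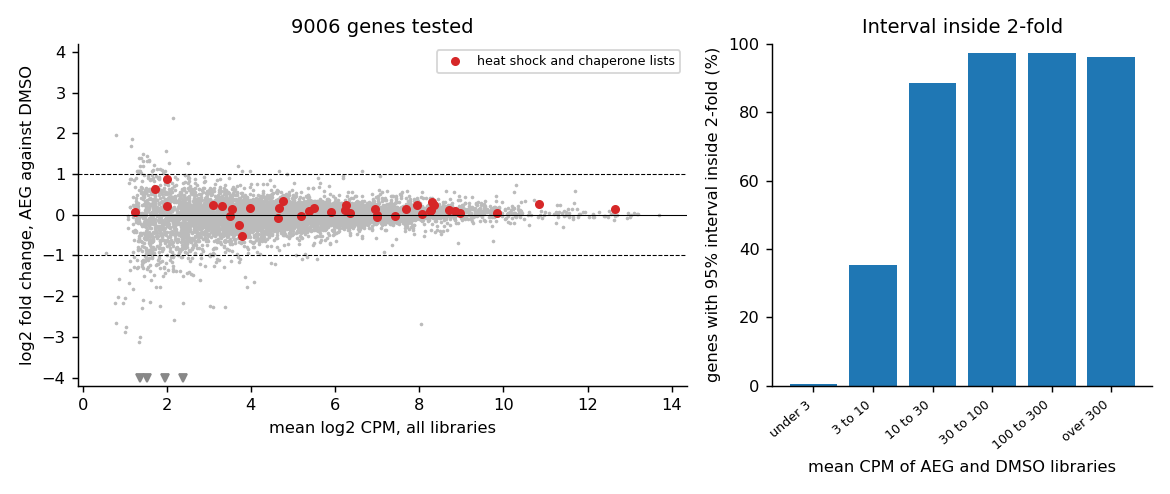
Left, fitted log2 fold change of AEG3482 against DMSO by mean log2 CPM, 1 point per gene for the 9006 genes tested, with heat shock and chaperone genes in red, dashed lines at 2-fold and 4 genes below the axis as triangles at its edge; right, bars of the percentage of genes whose 95% interval lay inside 2-fold, by mean CPM. None passed the test, and the share inside 2-fold goes from 0.434% under 3 CPM to 97.5% at 100 to 300 CPM.

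The same libraries show large changes across dawn. Against untreated seedlings at ZT0, AEG3482 seedlings differed in 3604 genes (40%), 1913 higher (21.2%) and 1691 lower (18.8%). DMSO seedlings differed in 3204 (35.6%), 1766 higher (19.6%) and 1438 lower (16%), by the same edgeR test and adjustment. Both counts share the untreated libraries, so they are set side by side and not compared.

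The heat shock and chaperone genes were read first, because raised HSP70 is the known mark of AEG3482 in mammalian cells. The lists named 16 heat shock factors, 18 HSP90 and co-chaperone genes, 18 HSP70, HSP40 and HSP100 genes and 14 small heat shock genes, of which 6, 10, 10 and 4 could be tested. None was called, and in none did the libraries of the groups separate, beside 6.87% of all genes. Many of them had already risen from ZT0 to ZT2 with DMSO, where 19.6% of all genes rose. In that comparison 3 of 6 heat shock factors rose, 7 of 10 HSP90 and co-chaperone genes, 8 of 10 HSP70, HSP40 and HSP100 genes and 3 of 4 small heat shock genes. HSP101, the cytosolic disaggregase, was not analysed here.

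HSFA2, a heat shock factor that is itself induced by heat and sustains the response, was listed at 0 counts in all 3 untreated libraries. It stood at 10.9, 22.9 and 23.8 CPM with DMSO and 35.1, 17.7 and 11.4 CPM with AEG3482. AEG3482 held both the highest and the next to lowest of the 6 values, and the groups overlapped. The fitted log2 fold change was 0.16, with a 95% interval of -0.90 to 1.21, and leaving out 1 library in turn moved it between -0.40 and 0.45. HSFB2B, a class B factor that represses transcription, stood at 27.9, 23.3 and 28.9 CPM with DMSO and 37.5, 26.4 and 36.7 CPM with AEG3482, a log2 fold change of 0.33 (-0.13 to 0.80). DMSO replicate 3 lay above AEG3482 replicate 2, so these groups overlapped as well. Over the 6 factors tested the log2 fold change was above 0 in 4, with a median of 0.16, beside 50.5% above 0 and a median of 0.0024 over all genes tested. That median was -0.11 without DMSO replicate 1, -0.068 without AEG3482 replicate 1 and -0.078 with LOX2 as a covariate, so its sign rests on single libraries. In the fit of all libraries 4 of the 6 intervals lay inside 2-fold, and those of HSFA4A and HSFA2 did not.

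HSP90.1, the heat-inducible HSP90 of the cytosol, rose from 7.09, 2.72 and 4.15 CPM at ZT0 to 63.5, 167 and 105 CPM with DMSO and 129, 122 and 96.9 CPM with AEG3482. The DMSO libraries held both the lowest and the highest of the 6 values, and the AEG3482 libraries lay between them, with a log2 fold change of 0.051 (-0.53 to 0.64). HSP90.6 of mitochondria stood at 264, 232 and 164 CPM with DMSO and 229.7, 224 and 272 CPM with AEG3482, and HSP90.7 of the endoplasmic reticulum at 547, 618 and 406 and 567, 531 and 509 CPM. Their log2 fold changes were 0.13 (-0.23 to 0.50) and 0.033 (-0.31 to 0.37), inside 2-fold. All 10 tested members of this list had intervals inside 2-fold, 6 of them were above 0, and the median was 0.042. Without DMSO replicate 2 the interval of HSP90.1 passed 2-fold, and the median ran from -0.020 without DMSO replicate 3 to 0.17 without DMSO replicate 2.

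HSP70-1, the abundant constitutive HSP70 of the cytosol, stood at 6738, 7604 and 5700.0 CPM with DMSO and 7030.0, 7932 and 6988 CPM with AEG3482. Its log2 fold change was 0.13 (-0.15 to 0.41), and the groups overlapped. HSP70-3, a close relative of it, stood at 117, 108 and 110.5 CPM at ZT0, 1816, 2833 and 1627 CPM with DMSO and 2538, 2795 and 2199 CPM with AEG3482. Of the 6 values the highest was DMSO replicate 2, and the other 2 DMSO libraries were the lowest. The log2 fold change was 0.26 (-0.077 to 0.60). HSP70-4, a heat-inducible member, likewise had its highest value in DMSO replicate 2 and its 2 lowest in the other DMSO libraries, at 5.86, 6.34 and 6.81 CPM at ZT0, 217, 592 and 289 CPM with DMSO and 483, 510.3 and 365 CPM with AEG3482, a log2 fold change of 0.31 (-0.23 to 0.85). The table pairs the identifier of HSP70-4 with a second locus name, and the gene is given here by its NCBI identifier. HSP70 genes share long stretches of sequence, so estimated counts may be split among them, though those of HSP70-1, HSP70-3 and HSP70-4 were whole numbers.

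All 10 tested genes of HSP70, HSP40 and HSP100 were above 0 in the fit of all libraries, from 0.045 to 0.31, with a median of 0.12. In that fit the 10 intervals lay inside 2-fold and each held 0. DMSO replicate 2 moved these values most. Without it HSP70-4 stood at 0.84 (0.42 to 1.25) and HSP70-3 at 0.54 (0.25 to 0.83), the median was 0.29, and 3 of the 10 intervals lay above 0. The intervals of HSP70-4 and HSP70-15 then passed 2-fold, and the adjusted p of HSP70-4 was 0.227 in edgeR (quasi-likelihood F test, Benjamini-Hochberg adjusted). At the other end, HSP70-4 stood at 0.039 without DMSO replicate 1, at -0.0060 without replicate 1 of both groups, left out after their values were seen, and HSP70-3 at 0.11 without DMSO replicate 3. Without DMSO replicate 3 the median was 0.0017 and 5 of the 10 were above 0. The summed level of the list was 11380, 13980 and 9385 CPM with DMSO and 12440, 14120 and 12120 CPM with AEG3482, overlapping. In the fits without DMSO replicate 2 or 3, the highest and the lowest DMSO library for this sum, no gene was called either.

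The small heat shock proteins, which bind unfolded proteins, were low. HSP17.8, of the cytosol, stood at 9.39, 14 and 22 CPM with DMSO and 28.9, 13.7 and 7.29 CPM with AEG3482, and HSP23.5 at 7.51, 12.1 and 20.8 CPM and 10.6, 14.4 and 14.9 CPM. HSP17.8 was both highest and lowest with AEG3482, at replicates 1 and 3, and the log2 fold changes were 0.14 (-0.81 to 1.08) and -0.025 (-0.88 to 0.83). HSP17.6II stood at 0.313, 5.1 and 5.11 CPM with DMSO and 11.2, 6.68 and 1.58 CPM with AEG3482, low in DMSO replicate 1 and AEG3482 replicate 3, a log2 fold change of 0.88 (-0.80 to 2.56). HSP18.2 stood at 4.69, 4.14 and 2.71 CPM and 3.1, 4.01 and 6.33 CPM, a log2 fold change of 0.22 (-0.70 to 1.15). The intervals of HSP18.2, HSP17.6II and HSP17.8 did not exclude a level 2-fold higher with AEG3482. That of HSP23.5 lay inside 2-fold in the fit of all libraries, and with 1 library left out in turn none of the 4 did. Of the 4 genes 3 were above 0, with a median of 0.18, which was 0.11 to 0.47 with 1 library left out in turn and -0.24 without replicate 1 of both groups. Over the 34 tested genes with the full heat shock element in their window the median was 0.039, and it was -0.041 without AEG3482 replicate 2, -0.0049 without DMSO replicate 2 and -0.0025 without TMM scaling, which moved the median of all genes to -0.036. The libraries of the groups separated in 3 of the 34 in the higher direction (8.82%) and in 1 in the lower (2.94%), beside 3.13% and 3.74% of all genes. Over the 1424 with the pair of blocks the median was 0.0057.

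**Figure D3:**
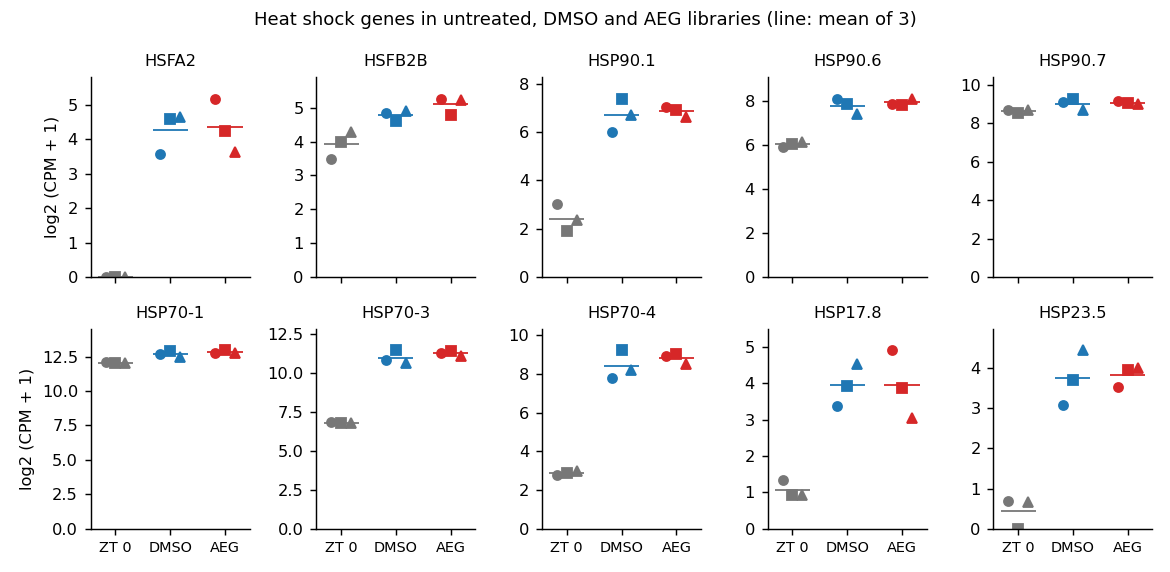
Levels of heat shock and chaperone genes as log2(CPM + 1), 1 panel per gene and 1 point per library, for untreated seedlings at ZT0 and for DMSO and AEG3482 at ZT2, with the mean of 3 as a line. In each panel the DMSO and AEG3482 points overlap, while HSFA2 goes from 0 CPM at ZT0 to 10.9 or more at ZT2.

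Chaperones of the endoplasmic reticulum and the sensors of unfolded protein there were above 0 in 7 of 8 tested, with a median of 0.13 (0.072 to 0.18 with 1 library left out in turn). The highest log2 fold change was 0.64, and none was called. In the fit of all libraries 6 of the 8 intervals lay inside 2-fold, and those of NAC103 and BIP3 did not. Without DMSO replicate 2, 2 of the 8 intervals lay above 0. BIP2, the HSP70 of that compartment, stood at 309, 380.5 and 331 CPM with DMSO and 459, 365 and 376 CPM with AEG3482. DMSO replicate 2 exceeded AEG3482 replicates 2 and 3, and the log2 fold change was 0.23 (-0.036 to 0.50). Part of the counts of BIP2 were not whole numbers, as for genes that share reads with a relative.

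The MAP kinase cascade was examined because JNK is a MAP kinase. Of 25 genes listed 13 were tested, 5 were above 0, none was called, and the median was -0.021 (-0.078 to 0.040 with 1 library left out in turn). MPK18, a kinase tied to microtubules, stood at 128, 123 and 145 CPM with DMSO and 144, 122 and 124 CPM with AEG3482, and MPK16 at 89.2, 98.8 and 79.7 and 95.9, 97.2 and 116 CPM. Both overlapped between the groups, with log2 fold changes of -0.021 (-0.32 to 0.28) and 0.21 (-0.075 to 0.49). All 13 intervals lay inside 2-fold in the fit of all libraries, and 11 of 13 without DMSO replicate 2. These are RNA levels and do not measure kinase activity.

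Genes that sugar represses had log2 fold changes below 0 in 8 of 9 tested, with a median of -0.32 (-0.49 without AEG3482 replicate 3 to -0.16 without AEG3482 replicate 1), but none was called and no member's libraries separated. The intervals of 5 of the 9 genes lay inside 2-fold. From ZT0 to ZT2 with DMSO 7 of the 9 were called, beside 35.6% of all genes. Of these 2 rose, BZIP2 and KMD4, with log2 fold changes of 1.26 and 0.90 across dawn. DYL1, a dormancy-associated gene of starved tissue, stood at 159.7, 166 and 149 CPM at ZT0, 11.9, 16.2 and 17.4 CPM with DMSO and 5.28, 12.4 and 16.5 CPM with AEG3482. Its log2 fold change was -0.42 (-1.24 to 0.39). BGAL4, a beta-galactosidase, stood at 42.6, 23.3 and 37.9 CPM with DMSO and 13.7, 10.4 and 43.1 CPM with AEG3482, and MIOX2, an enzyme of inositol breakdown, at 64.2, 13.7 and 45.1 CPM and 14.9, 12.4 and 47.5 CPM. In both, DMSO replicate 2 and AEG3482 replicates 1 and 2 were low and the other 3 libraries high. These low libraries, 2 with AEG3482 and 1 with DMSO, were the 3 highest in LOX2. In the fit with LOX2 as a covariate the median of the list was -0.20 in place of -0.32. The part of this LOX2 state in the lower values was not tested.

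STP1, a hexose transporter repressed by sugar, stood at 518, 574 and 469 CPM at ZT0, 177, 131 and 158 CPM with DMSO and 96.8, 125 and 152 CPM with AEG3482, a log2 fold change of -0.32 (-0.74 to 0.10). Its groups overlapped only through AEG3482 replicate 3. BZIP2, whose translation sucrose represses, gave -0.065 (-0.41 to 0.28). KMD4, an F-box protein of cytokinin and phenylpropanoid control, was the exception, at 196, 287 and 321 CPM with DMSO and 287, 333 and 444 CPM with AEG3482 and a log2 fold change of 0.40 (-0.019 to 0.83).

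Sugar-induced genes were above 0 in 2 of 5 tested, with a median of -0.043 (-0.15 to 0.049 with 1 library left out in turn) and every interval inside 2-fold, except that of SUS1 without DMSO replicate 2. NIA2, the main nitrate reductase, stood at 3662, 3361 and 3954 CPM with DMSO and 3091, 3326 and 4239 CPM with AEG3482, a log2 fold change of -0.043 (-0.37 to 0.29). NIA1, the second nitrate reductase, gave -0.17 (-0.55 to 0.21), and CHS, chalcone synthase of flavonoid synthesis, 0.10 (-0.41 to 0.62). Groups overlapped for all of them.

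Of 11 tested genes of sugar sensing, including SnRK1, hexokinase, trehalose phosphate synthase and their bZIP factors, 5 were above 0 and all 11 intervals lay inside 2-fold (10 without AEG3482 replicate 3, DMSO replicate 1 or DMSO replicate 2). HXK1, the hexokinase that senses glucose, stood at 136, 186 and 140.5 CPM with DMSO and 152, 157 and 177 CPM with AEG3482. TPS1, which makes trehalose 6-phosphate, stood at 162, 127 and 149 CPM and 142, 162 and 145 CPM. Their log2 fold changes were 0.071 (-0.24 to 0.38) and 0.035 (-0.22 to 0.29). BZIP11, a factor repressed by sucrose at translation and acting on amino acid metabolism, was the only member whose libraries separated (6.87% of all genes did), at 36.9, 38.2 and 37.3 CPM with DMSO and 62.4, 43.5 and 43.7 CPM with AEG3482. Its log2 fold change was 0.41 ± 0.18 (SE of the fit, 3 against 3 libraries), with an interval of 0.044 to 0.78 that lay above 0. It did not pass edgeR's quasi-likelihood test under Benjamini-Hochberg adjustment (adjusted p = 0.9995).

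No clock gene was called. Of 13 tested, 5 were above 0 and the median was -0.069 (-0.15 without DMSO replicate 2 to -0.0010 without DMSO replicate 3). The intervals of 12 of the 13 lay inside 2-fold. LHY, the morning repressor of the clock, stood at 2417, 2613 and 2525 CPM at ZT0, 969.5, 810.3 and 925 CPM with DMSO and 789.9, 757 and 819 CPM with AEG3482, a log2 fold change of -0.19 (-0.49 to 0.11). RVE1, a morning factor of auxin output, stood at 146, 128 and 149.8 CPM and 118, 119 and 146 CPM, and TOC1, the evening repressor, at 27.2, 19.1 and 19.9 CPM and 21.4, 23.7 and 19 CPM. The groups overlapped in each, and the log2 fold changes were -0.14 (-0.43 to 0.14) and -0.046 (-0.51 to 0.42).

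LNK1 and LNK2, coactivators of the morning loop, lay on opposite sides of 0. LNK1 stood at 419, 466 and 435 CPM with DMSO and 478, 493 and 487 CPM with AEG3482, without overlap. ZTL, the blue light receptor that degrades TOC1, did not overlap either, and the log2 fold changes were 0.14 (-0.23 to 0.51) and 0.16. These were the 2 of 13 clock genes whose libraries separated, where 6.87% of all genes did, 3.13% in the higher direction. LNK2 stood at 1953, 1213 and 2328 CPM with DMSO and 1609, 1414 and 1568 CPM with AEG3482, a log2 fold change of -0.26 (-0.67 to 0.15). Over the 214 tested genes with the evening element AAAATATCT in the 250 bases before their start, on either strand, the median log2 fold change was 0.022. That element stood in 2.36% of all windows.

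Genes of reactive oxygen were above 0 in all 7 tested, from 0.010 to 0.59, with a median of 0.11 (0.11 to 0.26 with 1 library left out in turn) and none called, but RBOHD was at -0.027 without TMM scaling. The intervals of 5 of the 7 genes lay inside 2-fold. RBOHD, the main NADPH oxidase of leaves, stood at 128, 149 and 125 CPM with DMSO and 132, 150.1 and 123 CPM with AEG3482, a log2 fold change of 0.010 (-0.38 to 0.40). RBOHF, a second NADPH oxidase, stood at 26.9, 21.4 and 22 CPM and 33.8, 25.4 and 38.6 CPM, overlapping through DMSO replicate 1. Its log2 fold change was 0.48 ± 0.21 (SE of the fit, 3 against 3 libraries), with an interval of 0.039 to 0.92 that lay above 0. The adjusted p of RBOHF was 0.9995 by edgeR's quasi-likelihood test and Benjamini-Hochberg adjustment. OXI1, a kinase switched on by oxidants, did not overlap, at 7.82, 9.24 and 8.72 CPM with DMSO and 11.5, 9.69 and 17.7 CPM with AEG3482, and its interval of -0.089 to 1.27 held 0. It was the only 1 of the 7 whose libraries separated, beside 6.87% of all genes.

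Of 13 tested genes of detoxification 8 were above 0, with a median of 0.12 (0.034 without AEG3482 replicate 1 to 0.31 without AEG3482 replicate 2), and none was called. Only 6 of the 13 intervals lay inside 2-fold. GSTU5, a glutathione transferase, stood at 541, 1174 and 728 CPM with DMSO and 1261, 911 and 755 CPM with AEG3482, a log2 fold change of 0.26 (-0.22 to 0.75). CYP81D11, a cytochrome P450 induced by foreign chemicals, stood at 171, 342 and 318 CPM with DMSO and 432, 293 and 509 CPM with AEG3482, a log2 fold change of 0.57 (-0.100 to 1.24). Its close relative CYP81D8 lay on the other side without overlap, at 48.8, 32.2 and 70.1 CPM with DMSO and 28.2, 18.7 and 28.8 CPM with AEG3482, a log2 fold change of -0.99 (-2.0 to 0.013). Of the 13 only CYP81D8 had separate libraries, where 6.87% of all genes did. UGT75B1, a glucosyltransferase, gave 0.12 (-0.17 to 0.42).

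Sulfonamides are known to inhibit carbonic anhydrases, so these genes were read too. Of 5 tested, 1 was above 0 and the median was -0.13, which turned to 0.041 without DMSO replicate 1. CA1, the abundant chloroplast enzyme, stood at 7891, 6265 and 5219 CPM with DMSO and 5335, 6385 and 6012 CPM with AEG3482, and CA5 at 191, 219 and 177 CPM and 182, 217 and 220.1 CPM. The groups overlapped, with log2 fold changes of -0.13 (-0.45 to 0.20) and 0.077 (-0.18 to 0.34), and all 5 intervals lay inside 2-fold, except that of CA3 without AEG3482 replicate 2 or DMSO replicate 1.

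**Figure D4:**
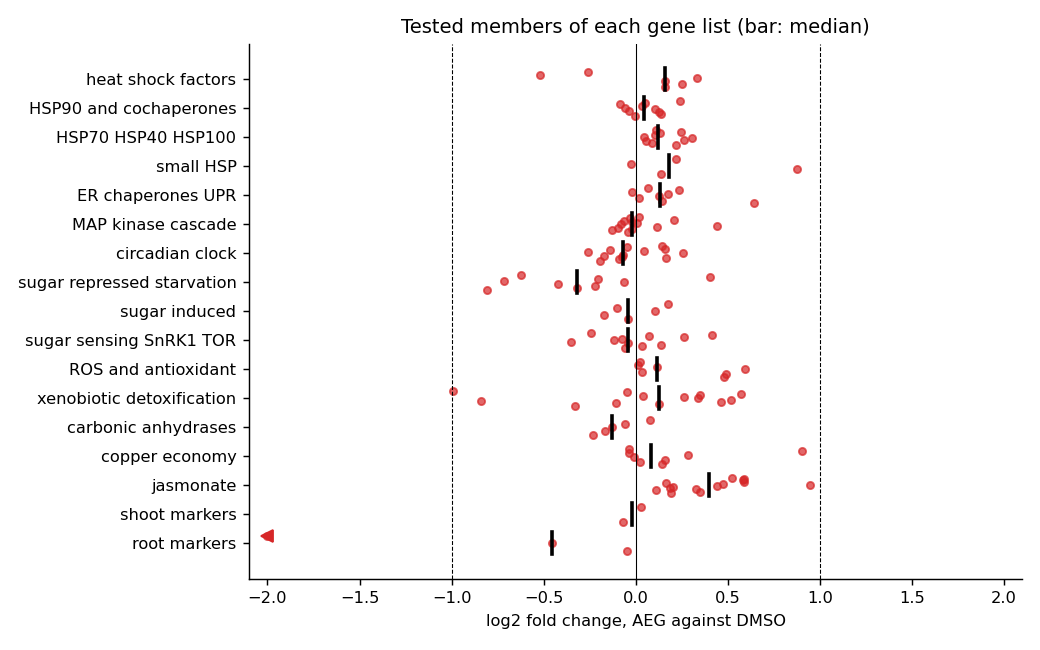
Log2 fold changes of AEG3482 against DMSO for the tested members of each gene list, 1 point per gene, with the list's median as a bar, dashed lines at 2-fold and TIP2;3 of the root list beyond the axis as a triangle at its edge. The medians run from -0.45 for 3 root markers to 0.40 for 14 jasmonate genes, both ends moving with single libraries, and no point passed the test.

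The jasmonate list had the highest median of the lists, 0.40, with 14 of 14 tested genes above 0. With 1 library left out in turn the median ran from 0.032 without DMSO replicate 1 to 1.14 without DMSO replicate 2, and it was 0.080 without AEG3482 replicate 1 and -0.27 without replicate 1 of both groups. No member was called, and no member's libraries separated. Only 3 of the 14 intervals lay inside 2-fold. TAT3, a tyrosine aminotransferase induced by jasmonate, stood at 5.95, 164 and 35.5 CPM with DMSO and 187, 176 and 31 CPM with AEG3482. VSP2, a vegetative storage protein, stood at 34.7, 492 and 175 CPM and 473, 486 and 97.5 CPM, and JAZ9, a repressor of the pathway, at 389.6, 1143 and 626 CPM and 1184, 974 and 547 CPM. In all 3 genes DMSO replicate 1 was lowest, DMSO replicate 2 and AEG3482 replicates 1 and 2 were high, and DMSO replicate 3 and AEG3482 replicate 3 lay between. The summed level of the list was 2634, 14390 and 5392 CPM with DMSO and 14290, 12570 and 4653 CPM with AEG3482. With LOX2 as a covariate the median of the list was -0.19. LOX2 is itself a jasmonate gene, so this fit takes out part of what the list measures, and nothing is concluded from it.

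In the copper list 5 of 8 tested were above 0, with a median of 0.085, which was -0.13 without AEG3482 replicate 1, -0.064 without DMSO replicate 1, -0.0016 without AEG3482 replicate 2 and -0.080 with LOX2 as a covariate. Only 2 of the 8 intervals lay inside 2-fold. FSD1 was high in 1 library of each group, and its fitted log2 fold change of 0.28 had an interval of -4.65 to 5.21. YSL2, a metal transporter, stood at 76, 8.29 and 2.71 CPM with DMSO and 152, 5.01 and 4.75 CPM with AEG3482, again high in replicate 1 of both, a log2 fold change of 0.90 (-2.09 to 3.89). Without replicate 1 of both groups, a choice made after seeing these values, edgeR called 0 genes between AEG3482 and DMSO, with 231 at an unadjusted p under 0.05.

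Since none was called, the largest uncalled differences were named by a rule. It took the 10 largest each way among genes with a mean log2 CPM of at least 3, no overlap between the libraries and an unadjusted edgeR p under 0.05. These conditions held for 148 genes, 51 higher and 97 lower. They were picked for their size, so their values are a description, and every adjusted p stood at 0.916 or above in edgeR (quasi-likelihood F test, Benjamini-Hochberg adjusted).

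Highest was AT1G51090, of a family of heavy metal transport and detoxification proteins. It stood at 0.617, 1.21 and 0.889 CPM at ZT0, 14.7, 29.3 and 22.3 CPM with DMSO and 56.5, 40.8 and 42.8 CPM with AEG3482. The log2 fold change was 1.08 ± 0.24 (SE of the fit, 3 against 3 libraries). RNS1, a ribonuclease made in phosphate starvation and wounding, stood at 18.8, 38.6 and 35.8 CPM with DMSO and 99.6, 42.4 and 45.3 CPM with AEG3482, a log2 fold change of 1.01. Replicate 1 of AEG3482 carried much of that difference, and without it the value was 0.50. MLO11, a membrane protein of the MLO family, stood at 27.9, 53.9 and 45.7 CPM with DMSO and 84.7, 63.2 and 58 CPM with AEG3482. MGD2, which makes galactolipids when phosphate is short, stood at 6.26, 5.1 and 4.21 CPM and 7.76, 7.02 and 11.4 CPM.

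The other 6 with higher levels were AT1G57540, annotated as a 40S ribosomal protein, AT5G19030, an RNA-binding protein, AT3G24760, a kelch repeat protein, RABA5b, a RAB GTPase, AT1G14130, an oxygenase that uses 2-oxoglutarate, and ENA, with a DnaJ-type cysteine-rich domain. Their log2 fold changes were 0.85, 0.74, 0.62, 0.62, 0.62 and 0.59. AT1G14130 stood at 24.1, 32.8 and 28.9 CPM with DMSO and 48.4, 38.1 and 45 CPM with AEG3482.

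AT1G02360, a chitinase family protein, had the smallest p of all genes. It stood at 11.4, 8.46 and 9.78 CPM at ZT0, 26.9, 47.2 and 34 CPM with DMSO and 16.1, 12.7 and 18.1 CPM with AEG3482. The AEG3482 libraries all lay below the lowest DMSO library, with a log2 fold change of -1.20 ± 0.25 (SE of the fit, 3 against 3 libraries). The adjusted p was 0.916 in edgeR (quasi-likelihood F test, Benjamini-Hochberg adjusted). AT2G43610, another chitinase family protein, stood at 23.8, 13.7 and 11.1 CPM with DMSO and 9.0, 1.67 and 6.02 CPM with AEG3482. AT3G54580, an extensin-like cell wall protein, stood at 7.51, 12.4 and 3.61 CPM and 2.48, 0.668 and 1.58 CPM, the largest fitted difference named by the rule at -2.27 (-4.15 to -0.38).

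AT4G11290, a peroxidase, stood at 8.14, 9.24 and 16.2 CPM with DMSO and 6.83, 5.35 and 3.48 CPM with AEG3482. SIS, annotated as similar to a RLIM-type ubiquitin ligase, stood at 9.7, 14.3 and 9.02 CPM and 5.9, 2.67 and 4.75 CPM, and CML42, a calmodulin-like protein, at 13.5, 7.65 and 10.5 CPM and 4.66, 4.01 and 7.29 CPM. The remaining 4, AT3G07195 of the RIN4 family, AT4G18340, a glycosyl hydrolase, the zinc-finger protein ZF3 and the receptor kinase GSO1, had log2 fold changes of -1.17, -1.13, -1.08 and -1.02. For ZF3 and GSO1 part of the estimated counts were not whole. Beside these lower genes, root markers were below 0 in 3 of 3 tested, with a median of -0.45 that ran from -1.07 without AEG3482 replicate 3 to -0.060 without AEG3482 replicate 2, and with BGLU23 at 0.0051 once replicate 1 of both groups was left out. PHT1;1, a phosphate transporter of roots, stood at 80.4, 61.5 and 50.8 CPM with DMSO and 44.4, 17 and 78.9 CPM with AEG3482, and BGLU23 at 2448, 2838 and 2114 CPM and 2190.0, 1862 and 3099 CPM. The groups overlapped in both, and the summed level of the root list was 2531, 2902 and 2168 CPM with DMSO and 2235, 1879 and 3179 CPM with AEG3482. Its part in the lower genes was not tested.

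**Figure D5:**
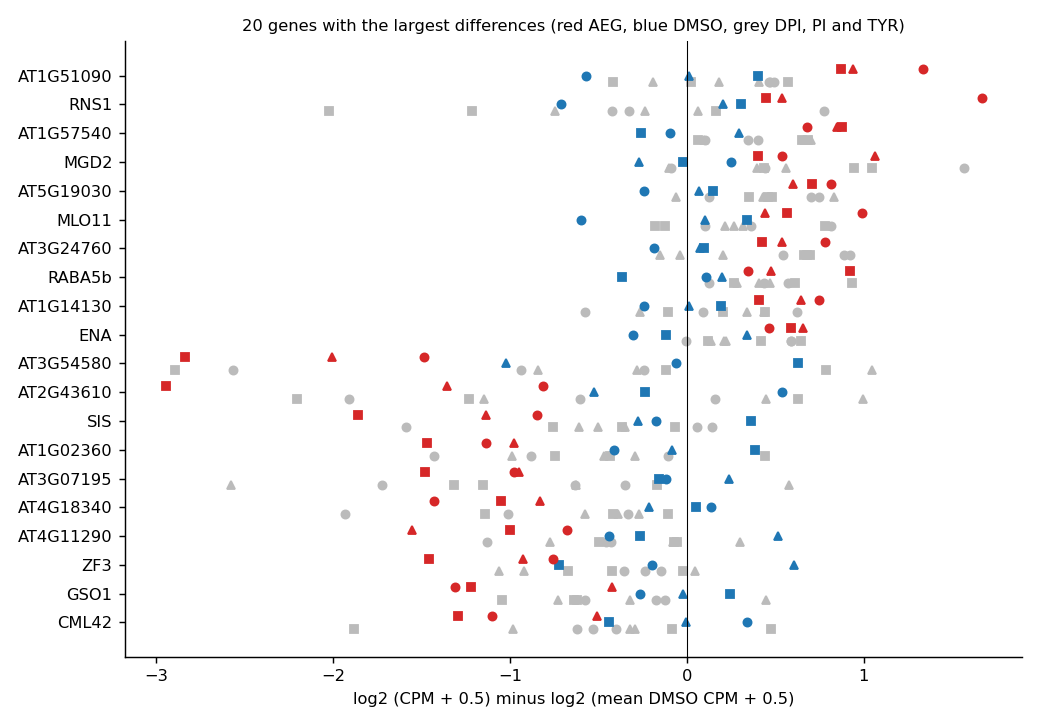
Levels of the 10 genes with the largest positive and the 10 with the largest negative uncalled differences, as log2(CPM + 0.5) less the same of the DMSO mean, 1 point per ZT2 library with AEG3482 in red, DMSO in blue and DPI, PI and TYR in grey. The rule that chose them requires that the red and blue points of a gene do not overlap, and none of the 20 had an adjusted p below 0.916.

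Set against all 12 other libraries of ZT2, which include the DMSO libraries, AEG3482 again differed in 0 genes (0%) in edgeR (quasi-likelihood F test, Benjamini-Hochberg adjusted), with a smallest adjusted p of 0.670. An unadjusted p under 0.05 was reached by 340 genes (3.78%), of which 174 were higher (1.93%) and 166 lower (1.84%), and DESeq2 and limma-voom called 0, with 265 and 322. The 3 AEG3482 libraries lay outside the range of all 12 others in 31 genes (0.344%), 13 higher and 18 lower. AT1G51090 was one of them, with a log2 fold change of 0.89 ± 0.18 (SE, 3 against 12 libraries). SUFE2, an activator of chloroplast cysteine desulfurase, and AT5G55180, a glycosyl hydrolase, were higher as well, at 0.73 and 0.50. PAP9, a purple acid phosphatase, was lower, at -0.92. AT5G16720, annotated as a caldesmon-like protein, and AT5G64780, annotated as a holocarboxylase synthetase, were lower as well, at -0.62 and -0.75. AT5G16720 stood at 32.2, 21 and 23.2 CPM with DMSO and 12.4, 15 and 16.5 CPM with AEG3482.

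In 4 tested genes all AEG3482 libraries held 0 counts. AT2G39375, an uncharacterized gene singled out after its values were seen, had 23, 17 and 12 counts with DMSO, 48, 37 and 35 in untreated seedlings and 0 in each AEG3482 library. Its mean level with DMSO was 5.63-fold a floor of 3 counts per AEG3482 library, a ratio of means and not a lower bound. The adjusted p of AT2G39375 was 0.9995 by edgeR's quasi-likelihood test and Benjamini-Hochberg adjustment. PI replicate 2 and TYR replicate 3 also held 0 counts of it, and part of its estimated counts were not whole. The root gene TIP2;3, a water channel of the vacuole, had 4, 9 and 8 counts with DMSO and 0 with AEG3482. Its mean with DMSO was 2.26-fold the same floor. TYR replicate 2 also held 0 counts of TIP2;3, and the DPI libraries held 3, 1 and 2. The other two, AT4G22495 and AT1G52060, were also at 0 in at least 1 DMSO library.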

How the data were processed

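The labels describe poly(A)-selected RNA from whole seedlings sequenced as paired reads, and the submitters' processing notes name HISAT2 2.2.1, RSEM 1.2.22 and the genome build TAIR10, with no roles given. Per the file headers, the authors deposited read counts, FPKM and TPM for each of the 18 libraries in 1 table. The deposited read counts are estimated counts, since 3.59% of values are not whole, and they were rounded to whole numbers before testing. The authors' deposited TPM values of the genes in the table sum in each library to 48.4 to 49.0% of the total that TPM assigns to all genes, and the authors' deposited FPKM was not used. Of 29431 lines 11981 name a gene, and 544 repeats with the same values were dropped, which left 11437 genes, all matched by NCBI identifier to RefSeq TAIR10.1. For 274 identifiers the table gives a second locus name. Of the genes named, BIP2, LNK1, STP1, BGAL4, PHT1;1, ZF3, GSO1, AT2G39375 and AT1G55673 have values that are not whole. Genes that share reads can have such values.

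edgeR 4.0.16 (in R 4.3.3) fitted all 18 libraries with TMM scaling, its filter on low counts and 1 coefficient for each of 6 groups, leaving 12 residual degrees of freedom. Genes were tested by quasi-likelihood with Benjamini-Hochberg adjustment over the 9006 genes that passed the filter, and called at an adjusted p under 0.05. Intervals at 95% use the standard error implied by the F statistic. Over all 18 libraries the total was 3156987 to 3249696 counts, at which 3 counts equal 0.889 to 1.00 CPM. The scripts were tested on simulated data. DESeq2 1.42.0, limma-voom (limma 3.58.1), other filters, no TMM, only the groups compared, a replicate block, covariates and leaving out libraries were the alternatives.

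Gene lists, the comparison and the rule for named genes were chosen with earlier results of these data known. The rule names the 10 largest differences each way among genes with a mean log2 CPM of at least 3, separate libraries and an unadjusted p under 0.05 (3 each way against the other ZT2 media), and the up to 4 members of each list with the highest mean CPM; further members named were chosen after their values were seen. Promoter windows were read from the RefSeq TAIR10.1 genome by its own annotation. No 2 of the 6 libraries agreed within counting noise, with squared differences at least 5.22 times the Poisson expectation.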

Additional observations from a re-analysis of the deposited data

How the results depend on the processing

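AEG3482 and DMSO differed in 0 genes under all 16 alternatives, with 213 to 653 genes at an unadjusted p under 0.05 and a smallest adjusted p of 0.0659. Against the other ZT2 media it was 0 as well, with 265 to 480 and a smallest adjusted p of 0.0730. Both smallest values came without DMSO replicate 2, and 653 is more than 1.5 times the 302 of the reported fit, the only such count against DMSO. Against untreated seedlings the count was 3604, 2978 to 3634 when 1 library was left out, and 371 with LOX2 as a covariate, a gene lower in all 3 untreated libraries than in any library of ZT2. The share of genes with an interval inside 2-fold was 67.5 to 82.4% over the alternatives and 70.6 to 75.6% when libraries were left out. DMSO and AEG3482 libraries were also correlated over all genes after the mean of its group was taken from each gene's log2 CPM. These correlations of what remained, not of the levels, were -0.068, 0.13 and 0.089 for same-numbered libraries. For libraries with different numbers they were -0.18 to 0.097. For FSD1, however, replicate 1 was the high library with DMSO, AEG3482, DPI (1076 CPM) and PI (1675 CPM), and replicate 3 with TYR (961 CPM). The replicate block gave 0 calls, with 286 genes at an unadjusted p under 0.05 by edgeR. Of 1245 alternative values of the named genes 1165 kept their direction, 80 changed sign and 0 were called. With LOX2 as a covariate the log2 fold changes that changed sign were HSFA2 -0.16, HSP90.1 -0.15, HSP90.7 -0.049, HSP17.8 -0.34, HSP23.5 0.035, BZIP2 0.060, NIA2 0.039, CHS -0.074, RBOHD -0.14, FSD1 -7.06, YSL2 -0.62, JAZ9 -0.093 and VSP2 -0.21. HSP23.5 was 0.071 in limma-voom, 0.035 with the replicate block and 0.029 with FSD1 as a covariate. Without TMM those were TPS1 -0.0077, RBOHD -0.027 and PSBO1 -0.012, and the median of all genes was -0.036. Without replicate 1 of both groups they were HSFA2 -0.68, HSP90.1 -0.31, HSP70-4 -0.0060, HSP17.8 -0.78, TOC1 0.13, MIOX2 0.027, NIA2 0.050, RBOHD -0.0083, GSTU5 -0.19, CA1 0.11, YSL2 -0.15, LOX2 -0.11, JAZ9 -0.22, VSP2 -0.19, LHCA1 0.078 and BGLU23 0.0051. With 1 library left out in turn, the ranges of those that changed sign were HSFA2 -0.40 to 0.45, HSP90.1 -0.23 to 0.45, HSP90.6 -0.040 to 0.29, HSP90.7 -0.12 to 0.17, HSP17.8 -0.53 to 0.50, HSP23.5 -0.31 to 0.43, MPK18 -0.10 to 0.048, TOC1 -0.14 to 0.13, BZIP2 -0.24 to 0.16, NIA2 -0.20 to 0.049, CHS -0.12 to 0.38, HXK1 -0.013 to 0.23, TPS1 -0.061 to 0.12, RBOHD -0.071 to 0.091, CA1 -0.26 to 0.041, FSD1 -7.82 to 8.80, CSD2 -0.28 to 0.60, YSL2 -2.56 to 3.30, LHCA1 -0.16 to 0.0065, PSBO1 -0.044 to 0.091 and BGLU23 -0.29 to 0.10. The gene list medians that changed sign with 1 library left out are given beside their lists, the evening element median was -0.0037 and that of the pair of blocks -0.0082 without AEG3482 replicate 3, and those of sugar sensing and the shoot markers ran from -0.060 to 0.0074 and from -0.099 to 0.049. Without replicate 1 of both groups the sugar-induced, sugar-sensing, detoxification and carbonic anhydrase medians were 0.063, 0.039, -0.11 and 0.11. The cause was not tested. Intervals exclude the least for genes under 10 CPM. Groups of 3 libraries are too small for a test of single outlying libraries, so none was made.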

Other observations

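AT1G55673, an uncharacterized gene noticed after its values were seen, differed widely between libraries of the same group at ZT2. It stood at 564.3, 574 and 1.2 CPM with DMSO and at 12.7, 49.1 and 116 CPM with AEG3482, beside 475.5 to 533 CPM in the 3 untreated libraries. No AEG3482 library reached the untreated range, while DPI, PI and TYR each held high and low libraries, from 2.08 to 563 CPM. Part of its estimated counts were not whole numbers. COR15B, a cold-regulated gene of the chloroplast noticed in the same way, stood at 16.3, 185 and 67.7 CPM with DMSO and at 250.8, 219 and 94.4 CPM with AEG3482, beside 3.02 to 4.93 CPM in the untreated libraries. Its lowest library of the 6 was DMSO replicate 1, which was also lowest in LOX2. Neither gene passed the test between AEG3482 and DMSO by edgeR with Benjamini-Hochberg adjustment.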
